A study of Mus musculus with 2 samples.

Results

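The prolactin receptor gene Prlr and 5 genes of its signalling route, Stat5a, Stat5b, Jak2, Cish and Socs2, were followed across the cell groups of the mouse prostate. The 6 genes were chosen by symbol from the 32285 genes listed in the deposited matrices, and each symbol matched 1 gene. Single cells came from wild-type male C57BL6 mice, with 1 droplet library made from ventral lobes and another from tissue of the proximal and periurethral region. No treatment, age or number of animals is given in the sources used here. Library, region and kit version (2 for the ventral library, 3 for the proximal one) cannot be told apart, and with 1 library per region no test between conditions was possible. Intervals below are 95% intervals that cover counting error only.

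Prolactin binds its receptor at the cell surface and activates the kinase JAK2, which is bound to the receptor's inner part. JAK2 then phosphorylates the transcription factors STAT5A and STAT5B, which enter the nucleus and switch on target genes. Cish and Socs2 are classical STAT5 targets whose proteins damp the same route. In the rodent prostate, prolactin is known as a growth and secretory stimulus of the luminal epithelium.

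After filtering, 1988 ventral and 3705 proximal cells remained, with medians of 25759 and 15260 UMIs (unique molecular identifiers, counted RNA molecules) per cell. They formed 12 and 21 clusters, grouped without using the 6 genes or 56 other genes of the pathway. Clusters were named from marker lists as ventral-, anterior- or dorsolateral-type luminal, proximal luminal, basal, fibroblast and other classes. The groups that the results rest on held 329 anterior-type, 163 dorsolateral-type, 160 ventral-type and 802 proximal luminal cells, 912 basal cells and 515 fibroblasts in the proximal library. The ventral library gave 1589 ventral-type luminal, 96 proximal luminal and 141 basal cells. A cluster of 42 cells in the proximal library led by Prr9 scored as anterior-type but did not meet the naming rule, and clusters led by Hbb-bs (409 cells) and Sbsn (174 cells) scored as proximal luminal but did not either. A cluster of 107 ventral-library cells led by Msmb, a secretory gene of the dorsolateral lobes, also stayed unnamed. The ventral basal group was mixed: fibroblast markers summed to 5314 CPM (the usual unit of counts scaled to a common total per group) there, against 4552 CPM for the basal markers.

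STAT5 factors bind DNA at a short palindrome, and the copies found near the start sites of Cish, a target gene, and Prlr, the receptor gene, are shown. The motif TTCNNNGAA, which reads the same on both strands, was searched in 300-base windows around RefSeq start sites (build GRCm38.p6). Each window held 250 bases before and 50 after the start. Windows were found for 5 of the 6 genes (not Socs2), 9 windows in all. The Cish window held 2 copies, 1 at the start site and 1 that begins 11 bases past it. Of the 3 Prlr windows, 1 held a copy, 110 bases before its start, and that start lies inside the annotated Prlr gene (chromosome 15, 10177238-10349180). The Cish stretch lies inside the annotated Cish gene (chromosome 9, 107296026-107302784). The Stat5a, Stat5b and Jak2 windows held no match. Of 32851 windows of all genes, 8.30% held the motif and 0.457% held 2 or more. The 30 bases around the matches, on the plus strand with the motif in capitals, were as follows.
Cish, chr9:107296649-107296678: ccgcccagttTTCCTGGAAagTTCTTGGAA
Prlr, chr15:10223786-10223815: gcaaaatgagTTCTAGGAAtaagggatatc

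Prlr encodes the receptor, and its level (CPM of the UMIs summed over a group) separated the lobe-type luminal groups from proximal luminal and basal cells in the proximal library. It stood at 379 CPM (368 to 391) in dorsolateral-type cells, 344 CPM (333 to 355) in anterior-type cells and 83.3 CPM (77.7 to 89.1) in ventral-type cells. Proximal luminal cells held 6.57 CPM (5.54 to 7.72) and basal cells 4.17 CPM (3.10 to 5.48). The Prr9-led cluster was higher than these 5 groups, at 1817 CPM (1754 to 1882). Every one of its 42 cells held a Prlr UMI, with a median of 57 UMIs and 90% of cells below 201, against a median of 9 in anterior-type cells. No single cell carried the level, since the highest held 273 of 3121 UMIs. Seminal-vesicle-like cells (26 cells) held 206 CPM, and fibroblasts 42.5 CPM (37.2 to 48.4).

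Macrophage-like cells of the proximal library held 31 Prlr UMIs, of which 28 lay in 1 cell, and 3.20 CPM (0.660 to 9.35) without that cell. Endothelial cells held 3.71 CPM (0.766 to 10.9). The intervals of proximal luminal and basal cells overlap both of these. When each cell was thinned to 1000 UMIs, 32.0% of anterior-type, 27.8% of dorsolateral-type, 5.62% of ventral-type and 0.625% of proximal luminal cells still held a Prlr UMI. The macrophage-like share, taken as background, was 1.28% (0.0325% to 6.94%), but it rests on 1 of 78 cells, and endothelial cells held 0 of 60. The proximal luminal share therefore could not be told apart from background at this depth. Without thinning the anterior-type and proximal luminal shares were 83.3% and 13.2%, with median depths of 31986 and 19201 UMIs, and the macrophage-like share was 5.06% at 11922. The Hbb-bs-led cluster, which scored as proximal luminal, held 21.1 CPM (18.5 to 23.9) of Prlr, with 34 of its 242 UMIs in 1 cell, and 14.7 CPM of Stat5a. Both genes were called there (at least 2-fold with an interval off 1) as higher than in proximal luminal cells, against 3.95% of genes higher and 1.77% lower, but Stat5a stood at 1.98-fold (1.58 to 2.47), under the threshold, without cells rich in Sbp and Spink1. With 10 CPM added to both levels, 0 of the 6 genes were past 2-fold, against 0.268% and 0.26% of genes.

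**Figure D1:**
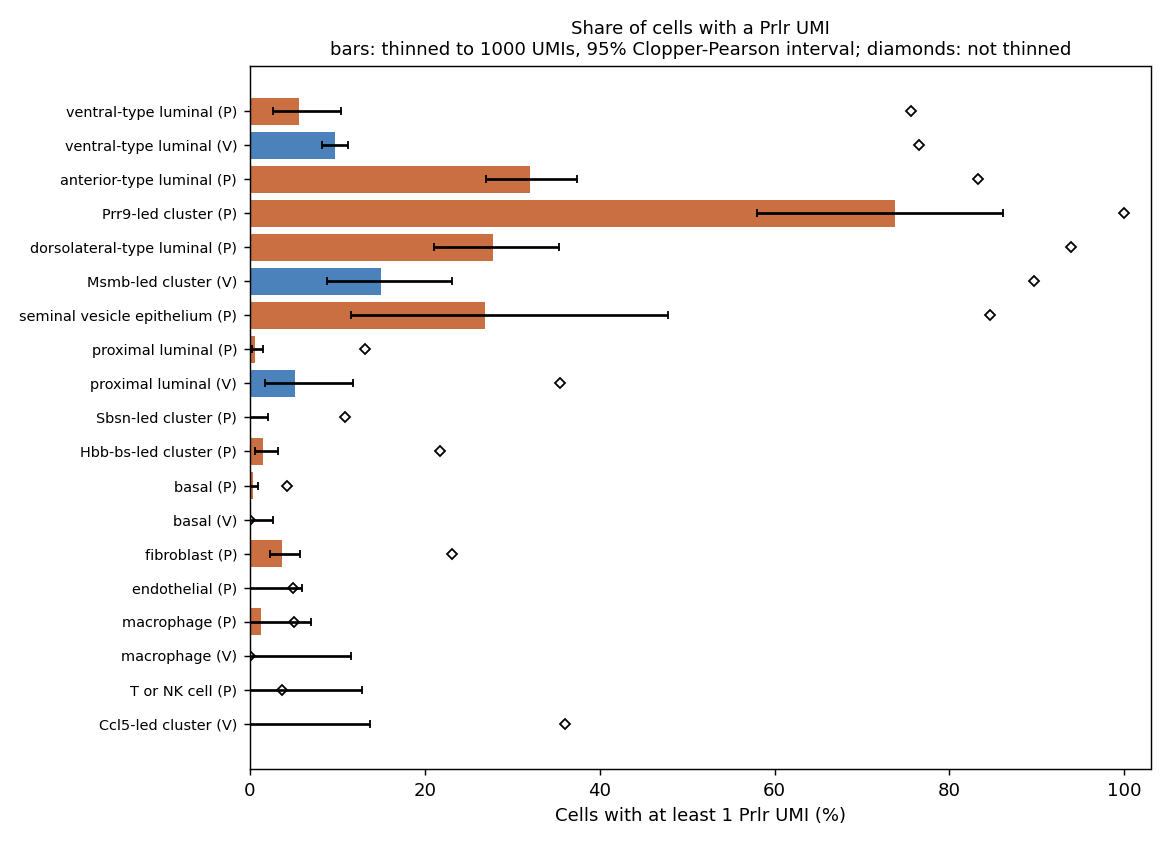
Share of cells with at least 1 Prlr UMI in each cell group (x axis, percent), with bars for cells thinned to 1000 UMIs and diamonds for unthinned cells; P and V mark the proximal and ventral libraries. The Prr9-led, anterior-type and dorsolateral-type bars stand at 73.8%, 32.0% and 27.8%, and the proximal luminal bar of the proximal library at 0.625%.

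In the ventral library, ventral-type luminal cells held 93.6 CPM (90.7 to 96.5) of Prlr, close to the 83.3 CPM of ventral-type cells in the proximal library. Their 7 clusters ranged from 26.1 to 120 CPM. The Msmb-led cluster was higher, at 142 CPM (128 to 156). Basal cells held 0 Prlr UMIs of 725410, which allows up to 4.14 CPM, and macrophage-like cells 0 UMIs, which allows up to 17.3 CPM, although ventral-type markers summed to 210875 CPM in those macrophage-like cells. A cluster of 25 cells led by Ccl5 held 41 Prlr UMIs, and 0 in its 11 cells with at most 5% of UMIs from Sbp and Spink1. The 96 proximal luminal cells of this library held 52.3 CPM (41.2 to 65.5). In 36 of them, Sbp and Spink1, secretory genes of the ventral lobe, made up more than 5% of the UMIs, and the 60 others held 24.6 CPM (14.1 to 40.0). The log2 ratio of ventral-type to proximal luminal cells was 0.84 (0.51 to 1.19), 1.93 without such cells, and 3.56 to 3.60 when at least 1000 genes per cell, another seed or a resolution of 2 gave another partition.

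Compared with proximal luminal cells of the same library, Prlr was 52.4-fold higher in anterior-type cells (log2 ratio 5.71, 5.47 to 5.96), 57.8-fold higher in dorsolateral-type cells and 12.7-fold higher in ventral-type cells. Other cell filters and partitions moved the anterior-type log2 ratio between 5.00 and 6.61. Subtracting free RNA at 5% of the library's mean profile takes 6.90 CPM of Prlr from every group, which leaves 0 of the 6.57 CPM of proximal luminal cells, so no finite ratio could be given under that setting. Counting a gene as called when its ratio is at least 2-fold with an interval off 1, 3 of the 6 genes (Prlr, Stat5a and Socs2) were called higher and 1 (Jak2) lower in anterior-type cells. Of 12825 genes with at least 50 UMIs in both groups together, 17.8% were called higher and 25.9% lower. With 10 CPM added to both levels before the ratio, 7.25% and 10.2% of genes were past 2-fold, and so were Prlr and Stat5a upward and Jak2 downward. In dorsolateral-type cells the same 3 genes were called higher and Jak2 lower, against 15.6% and 25.8% of all genes, and with 10 CPM added Socs2 was lost (5.35% and 10.6%). The order of dorsolateral- and anterior-type cells is not settled: the log2 ratio of Prlr between them was 0.14 (0.08 to 0.21), and -0.51 with the Prr9-led cluster counted as anterior-type. The only member called between these groups was Stat5b, higher in dorsolateral-type cells, against 8.02% of genes higher and 6.99% lower, and with 10 CPM added no member was past 2-fold (2.19% and 2.43%). Compared with anterior-type cells, ventral-type cells had Prlr, Stat5a, Jak2 and Socs2 called lower, against 40.1% of genes lower and 5.39% higher, and the log2 ratio of Jak2 there, -1.01, became 0.04 when the 69 most abundant genes were left out of the scaling. With 10 CPM added, Prlr and Stat5a were still past 2-fold lower there, but Jak2 and Socs2 were not, against 15% of genes lower and 1.85% higher. Leaving out those 69 genes moved every ratio of this comparison by 1.05. That put Prlr just under 2-fold lower, while Stat5a and Socs2 stayed past 2-fold.

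Stat5a, one of the 2 STAT5 factors, was high in the same lobe-type luminal groups as Prlr with 1 exception. It stood at 156 CPM (149 to 163) in anterior-type cells, 110 CPM (104 to 116) in dorsolateral-type cells and 214 CPM (193 to 237) in the Prr9-led cluster. Proximal luminal cells held 7.33 CPM (6.25 to 8.55), a log2 ratio of 4.41 (4.18 to 4.65) for anterior-type over proximal luminal. Ventral-type cells, the exception, held 7.56 CPM (5.96 to 9.47) in the proximal library and 5.90 CPM (5.20 to 6.67) in the ventral one. They thus held Prlr at 12.7 times the proximal luminal level and Stat5a at 1.03 times it. When the 69 genes most abundant in either library were left out of the scaling, the log2 ratio of Stat5a in ventral-type over proximal luminal cells went from 0.04 to 1.13 in the proximal library and from -0.60 to 0.12 in the ventral library. In the ventral library, Stat5a was 5.62-fold higher in the Msmb-led cluster (33.2 CPM) than in ventral-type cells, and 9.31-fold higher (54.9 CPM) in the 47 of its 107 cells not rich in Sbp and Spink1. Stat5b was called higher with Stat5a, against 7.01% of all genes higher and 3.3% lower. Cish was 1.37-fold higher with all cells and 2.67-fold (1.39 to 4.67), past the threshold, without the cells rich in Sbp and Spink1. The share of all genes past the threshold was not computed without those cells.

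**Figure D2:**
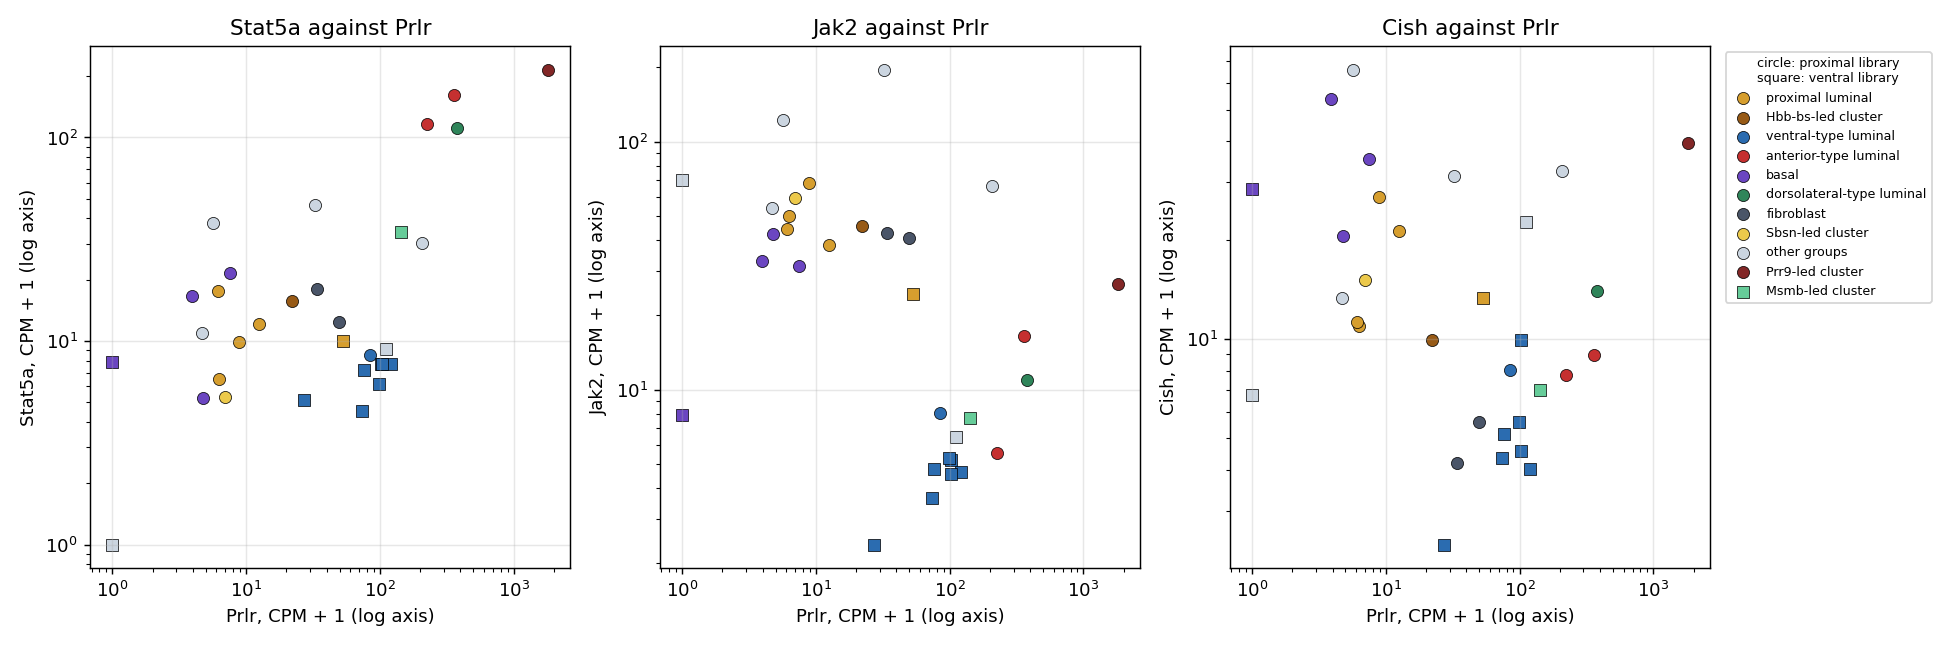
Levels of Stat5a, Jak2 and Cish (y axes, CPM + 1, log axes) against Prlr (x axes, CPM + 1, log axes) in each cluster of at least 25 cells, coloured by group, with circles for the proximal and squares for the ventral library. Anterior-type, dorsolateral-type and Prr9-led clusters lie high for both Prlr and Stat5a, while the ventral-type clusters lie between 26.1 and 120 CPM of Prlr with Stat5a at or below 7.56 CPM.

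Stat5b, the neighbouring gene on chromosome 11 (Stat5b at 100780731-100850724 on the minus strand, Stat5a at 100859351-100885169 on the plus strand, GRCm38), had another pattern. Among the larger groups of the proximal library it was highest in fibroblasts, at 119 CPM (110 to 129), and endothelial cells held 97.8 CPM. Dorsolateral-type cells held 65.5 CPM, basal cells 51.6 CPM, proximal luminal cells 43.6 CPM and anterior-type cells 28.6 CPM. Between anterior-type and dorsolateral-type cells the 2 factors went opposite ways, with a log2 ratio of dorsolateral over anterior of -0.51 (-0.61 to -0.40) for Stat5a and 1.19 (1.00 to 1.39) for Stat5b. The genes are close relatives, and how reads matching both were counted was not tested. Ventral-type cells held 19.7 CPM in the proximal and 5.69 CPM in the ventral library.

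Jak2, the kinase at the receptor, was lower in the 3 lobe-type luminal groups than in proximal luminal cells. It stood at 14.2 CPM (12.1 to 16.6) in anterior-type, 9.90 CPM (8.13 to 11.9) in dorsolateral-type and 7.06 CPM (5.52 to 8.91) in ventral-type cells, against 52.5 CPM (49.6 to 55.6) in proximal luminal cells. The log2 ratios to proximal luminal cells were -1.89, -2.41 and -2.89, and -1.85, -2.14 and -1.81 with the 69 most abundant genes left out of the scaling. Ventral-type cells of the ventral library held 3.67 CPM, a log2 ratio of -2.67 to proximal luminal cells of that library, and -3.50 without the proximal luminal cells rich in Sbp and Spink1. Among groups of at least 50 cells, macrophage-like cells of the proximal library held most, 194 CPM (168 to 224), and 157 CPM without their highest cell. The Prr9-led cluster held 25.6 CPM (18.6 to 34.4).

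**Figure D3:**
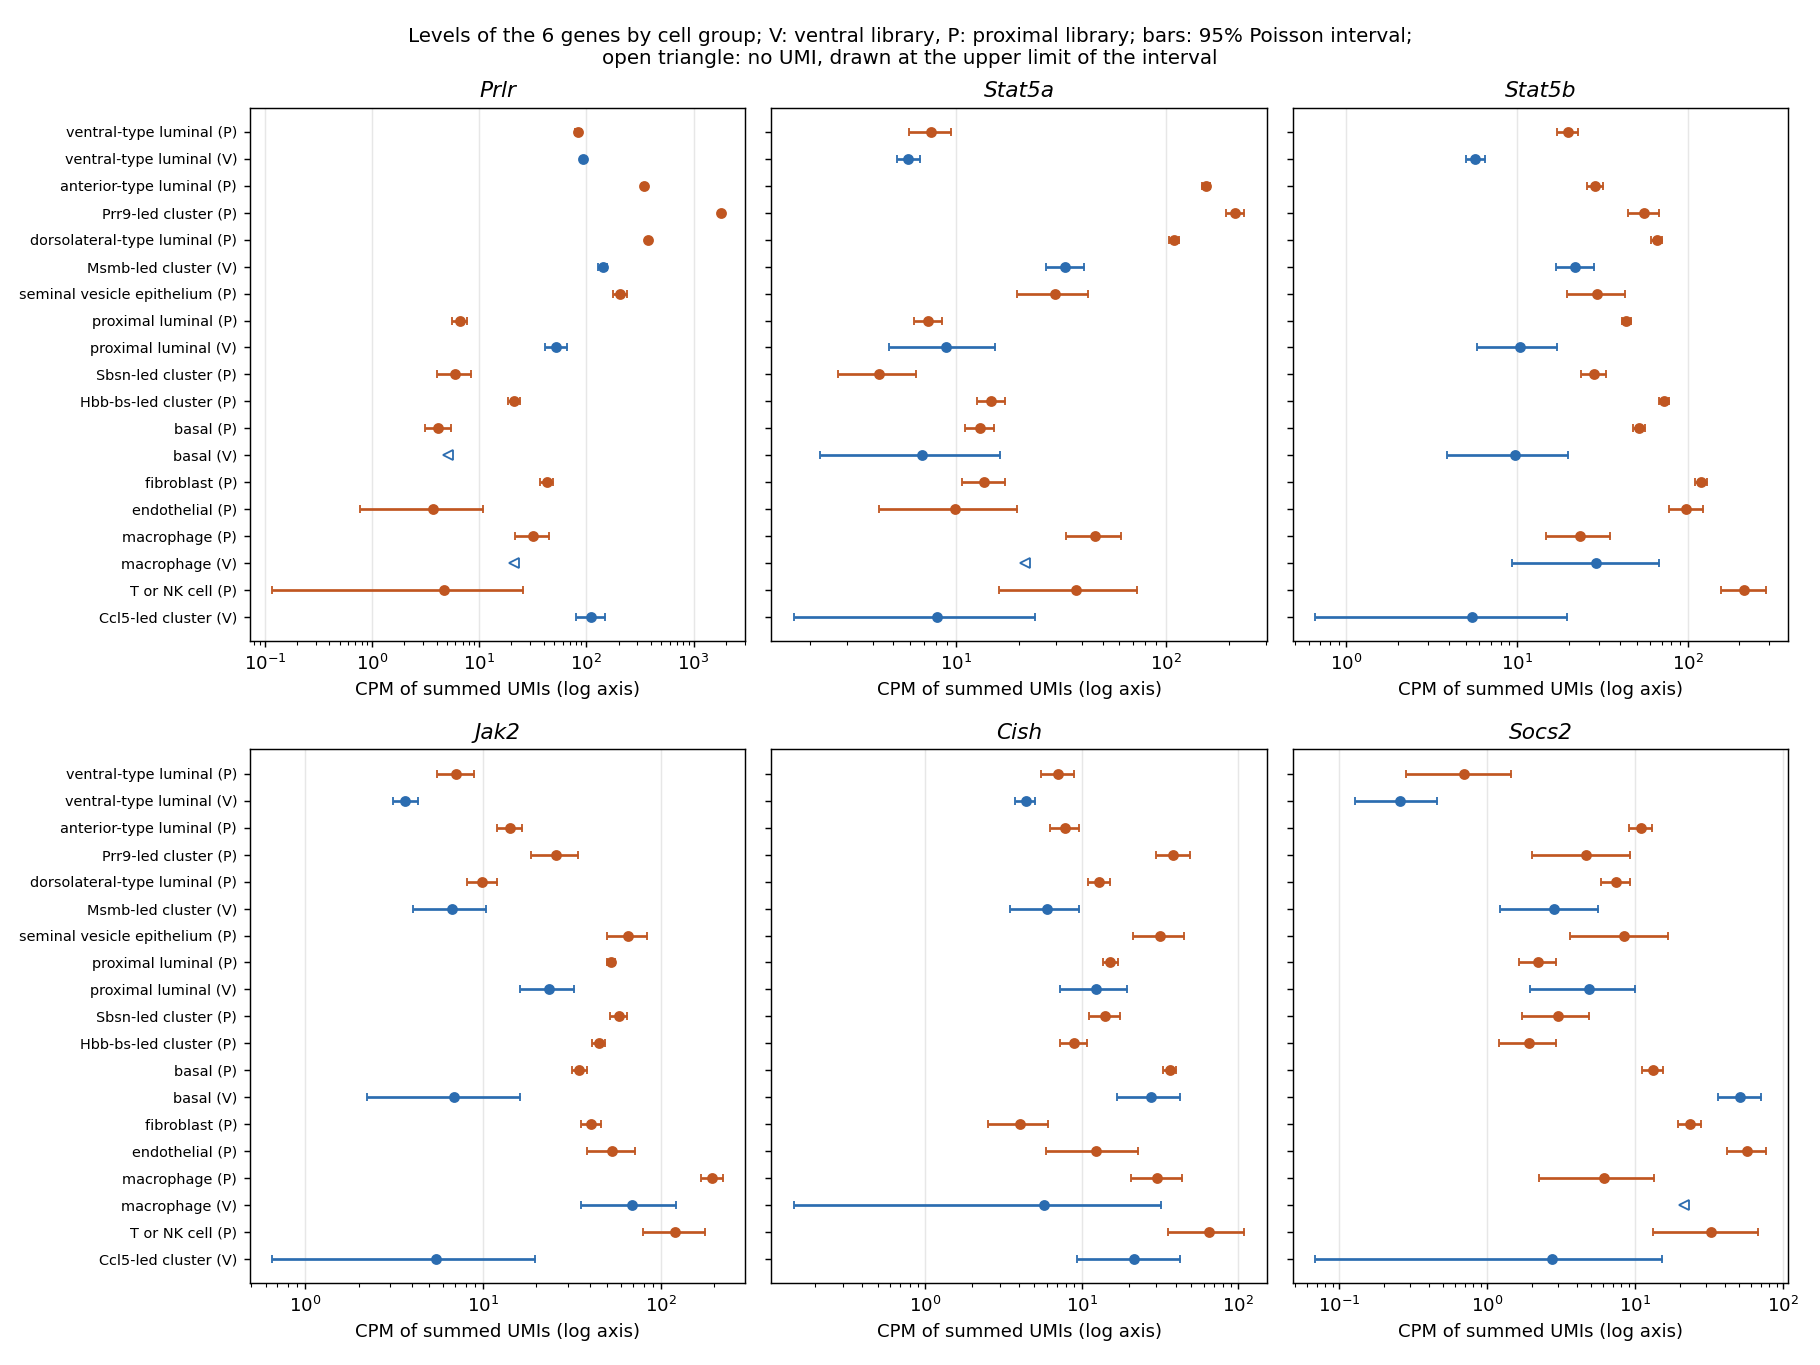
CPM of each of the 6 genes (x axes, log scale) in each cell group of at least 25 cells, with 95% Poisson intervals and open triangles at the upper limit where no UMI was found, orange for the proximal (P) and blue for the ventral (V) library. In the proximal library Prlr stands at 4.17 CPM in basal cells and at 1817 CPM in the Prr9-led cluster, and Jak2 is lower in the lobe-type luminal groups than in proximal luminal cells.

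Cish, an inhibitor that STAT5 switches on, did not follow Prlr across the named groups. Basal cells held 36.4 CPM (33.1 to 40.0), 2.39-fold above the 15.2 CPM (13.7 to 17.0) of proximal luminal cells, while dorsolateral-type, anterior-type and ventral-type cells held 13.0, 7.80 and 7.06 CPM. Within the basal group the Krt14-led cluster held 52.7 CPM, the Scpep1-led cluster 34.5 CPM and the Grp-led cluster 19.6 CPM. Proximal luminal clusters ran from 9.99 CPM (Krt23-led) to 26.1 CPM (Clca1-led), the latter above the Grp-led basal cluster. Fibroblasts held 4.05 CPM (2.54 to 6.13). The Prr9-led cluster was the exception among anterior-scored cells, with 38.4 CPM (29.7 to 48.9), 4.92-fold (3.52 to 6.85) above anterior-type cells. In that comparison Prlr was 5.29-fold and Cish 4.92-fold higher, and Socs2 2.32-fold lower, while 10.1% of genes were called higher and 2.8% lower. With 10 CPM added, Prlr and Cish were still past 2-fold and Socs2 was not, against 3.72% of genes higher and 0.819% lower. These cells held anterior markers at 16197 CPM, against 30910 CPM in anterior-type cells, proximal luminal markers at 2749 CPM, against 419 CPM, and basal markers at 225 CPM, against 54.2 CPM. The part of these markers in the result was not tested. The cluster was singled out after its values were seen. The log2 ratio of Cish in anterior-type over proximal luminal cells was -0.97 (-1.32 to -0.62), -0.36 with this cluster counted in, and 0.10 with at most 5% mitochondrial UMIs, so its direction is not settled.

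Socs2, the other inhibitor, was highest in endothelial cells among the groups of the proximal library. Endothelial cells held 56.9 CPM (41.7 to 75.9) and fibroblasts 23.4 CPM (19.5 to 27.8), a log2 ratio of 3.41 (2.92 to 3.91) over the 2.20 CPM (1.63 to 2.91) of proximal luminal cells. Basal cells held 13.1 CPM in the proximal library, with 22.7 CPM in the Scpep1-led, 13.8 CPM in the Krt14-led and 4.95 CPM in the Grp-led cluster. Proximal luminal clusters ran from 0.820 to 5.07 CPM. In basal over proximal luminal cells, Cish and Socs2 were the 2 members called higher, against 11.5% of genes, and none was called lower, against 13.1%. Neither was past 2-fold with 10 CPM added, against 3.98% of genes higher and 3.7% lower. Stat5b and Socs2 were called higher in endothelial cells, against 15.4% of genes, and none lower, against 13.7%. Anterior-type cells held 10.8 CPM (8.99 to 12.9) and dorsolateral-type cells 7.35 CPM. Ventral-type cells held 0.697 CPM in the proximal and 0.256 CPM in the ventral library (7 and 11 UMIs). The ventral basal group held 51.0 CPM (35.9 to 70.3), and the part of its fibroblast markers in this level was not tested. Its 61 cells with more basal- than fibroblast-marker UMIs held 59.7 CPM (36.5 to 92.2), and its 78 cells with more fibroblast-marker UMIs held 45.1 CPM (26.2 to 72.1). Of the 5 members with enough UMIs there, Cish was called higher than in ventral-type cells and Prlr lower, against 33% of genes higher and 6.8% lower.

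**Figure D4:**
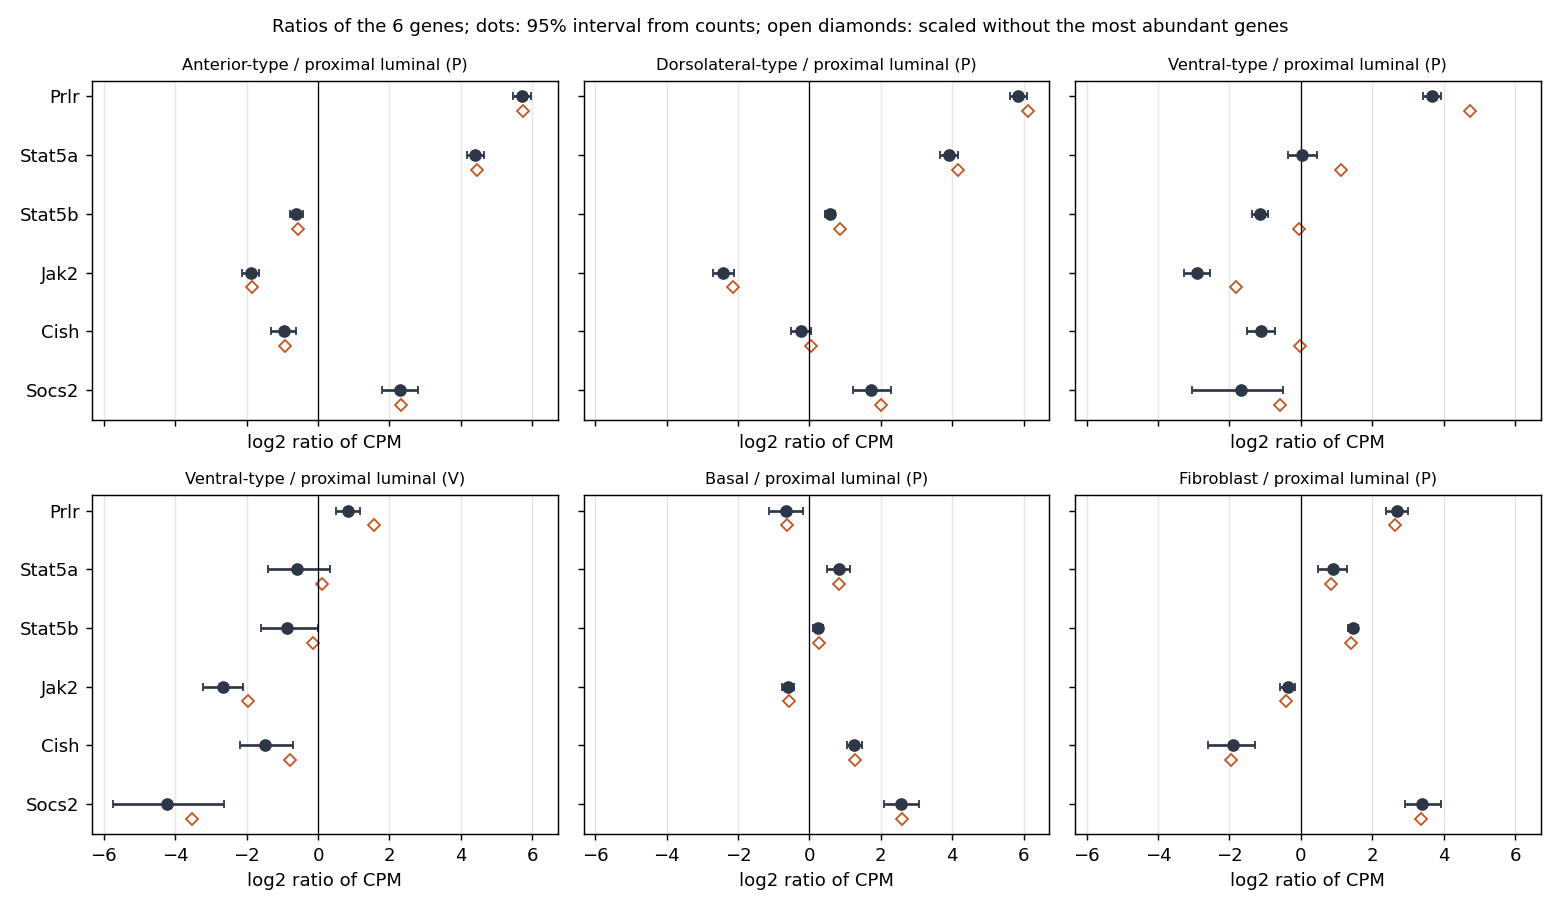
Log2 ratios of the 6 genes (x axes) in 6 comparisons with proximal luminal cells (P, proximal library; V, ventral library), with 95% intervals from counts as bars and, as open diamonds, the same ratios scaled without the 69 most abundant genes. The dots and diamonds nearly coincide for anterior-type, basal and fibroblast comparisons and lie apart by 1.08 for ventral-type cells of the proximal library.

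In fibroblasts, Prlr, Stat5b and Socs2 were called higher than in proximal luminal cells and Cish lower, against 23.9% and 16% of all genes. The 3 higher genes were still past 2-fold with 10 CPM added and Cish was not, against 12.5% of genes higher and 7.27% lower. In ventral-type cells of the proximal library, Prlr was called higher, against 6.12% of genes. Stat5b, Jak2, Cish and Socs2 were called lower there, against 44.8% of genes. Genes outside the 69 most abundant gave 34.0% of the UMIs of these cells, against 72.0% in proximal luminal cells. Leaving those genes out moved all ratios of this comparison by 1.08, after which Stat5b stood at -0.06 and Cish at -0.03. Socs2, at -1.66 before that shift, was then under the 2-fold threshold too, while Jak2 stayed past it. Of these 5 genes, Prlr and Jak2 were past 2-fold with 10 CPM added, against 1.83% of genes higher and 19.7% lower. The shift was 0.72 for ventral-type cells of the ventral library and 0.27 for dorsolateral-type cells, where Cish turned from -0.23 to 0.04. It was 0.03 for anterior-type cells.

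The other genes of the pathway were read from a list of 56. The ligand Prl had 0 UMIs in all kept cells and Gh had 85. Of the 7 milk protein genes, which STAT5 drives in the mammary gland, Lalba had 12 UMIs and no other had more than 3. In anterior-type over proximal luminal cells, 35 of the 56 had at least 50 UMIs, and 3 were called higher and 14 lower, beside 17.8% and 25.9% of all genes. Those higher were Elf5, a luminal transcription factor (log2 1.32), Ifngr2, a chain of the interferon gamma receptor (1.55), and Pias3, a STAT inhibitor (1.87). Of those lower, the 4 with the largest ratios were the inhibitor Socs3 (-3.14), Il6st, the shared chain of the interleukin 6 family of receptors (-3.01), Osmr, the oncostatin M receptor (-2.93), and Myc, a growth regulator (-2.19). Of 10 genes known to respond to STAT5, in a list that gives no direction of response, 8 could be measured. Of them, 6 were called lower (Myc, Pim1, Ccnd1, Bcl6, Mcl1 and Pim2) and 1 higher (Elf5), beside the same 25.9% and 17.8% of all genes. With 10 CPM added, only Bcl6, Ccnd1, Myc and Mcl1 were past 2-fold lower, against 10.2% of genes, and none was higher, against 7.25%.

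Dorsolateral-type cells had 5 of 35 pathway genes called higher and 10 lower, close to the 15.6% and 25.8% of all genes. Ghr, the growth hormone receptor, which uses the same kinase, was at 41.3 CPM there (log2 1.66 over proximal luminal), at 32.0 CPM in ventral-type cells and at 4.43 CPM in anterior-type cells, against 13.0 CPM in proximal luminal cells. The other genes named by size were Ifngr2 (1.72), Lifr (1.31) and Pias3 (1.16) upward, and Elf5 (-3.09), Ccnd1 (-2.25), Myc (-2.19) and Socs1 (-2.09) downward. Basal cells had 5 of 36 higher and 4 lower, close to the 11.5% and 13.1% of all genes, with Pim1 (2.68), Ghr (2.46), Osmr (2.02) and Socs3 (1.74) among the higher and Elf5 (-3.24), Ccnd1 (-2.09), Bcl2l1 (-1.38) and Stat2 (-1.06) lower. Fibroblasts had 13 of 38 higher and 3 lower, beside 23.9% and 16% of all genes, with Igf1, a growth factor of stroma, at 236 CPM, and with Pim1 (3.08), Socs3 (2.96) and Il3ra (2.76), while Elf5 (-4.65), Ccnd1 (-1.72) and Ptpn6 (-1.55) were lower. Ventral-type cells had 1 of 35 higher (Ghr) and 25 lower in the proximal library, beside 6.12% and 44.8% of all genes, led by Osmr (-4.08), Ccnd1 (-2.78), Il6st (-2.73) and Socs1 (-2.72), and 0 of 34 higher and 18 lower in the ventral library, where 1.07% of all genes were called higher and 31.9% lower. Of the 5 members measured in that comparison, Jak2 and Cish were called lower, and with 10 CPM added Jak2 alone was past 2-fold, against 9.72% of genes lower and 0.237% higher. Prlr was also past the threshold of the first rule, at 3.80-fold higher (2.34 to 6.66), without the 36 proximal luminal cells rich in Sbp and Spink1. So was Stat5b, at 3.24-fold lower (1.65 to 5.77). The share of all genes past it was not computed for that set of cells. With 10 CPM added, fewer of these pathway genes (both directions together) were past 2-fold over proximal luminal cells. They numbered 0 higher and 8 lower in anterior-type, 2 and 6 in dorsolateral-type, 5 and 1 in basal cells, 10 and 1 in fibroblasts, and 0 and 13 in ventral-type cells of the proximal library. In the ventral library they numbered 0 and 4 in ventral-type cells. Ghr in ventral-type cells and Elf5, Ifngr2 and Pias3 in anterior-type cells were among those no longer past it.

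Between libraries the same groups can be set side by side but not tested. In ventral-type cells Stat5b was 3.46-fold higher in the proximal than in the ventral library, the 1 member called of 5 measured, against 10.7% of genes higher and 2.04% lower. No member was past 2-fold there with 10 CPM added (1.28% and 0.436%). Prlr in these cells differed by a log2 ratio of -0.17 (-0.28 to -0.06). In proximal luminal cells Stat5b was 4.22-fold and Jak2 2.25-fold higher and Prlr 7.97-fold lower in the proximal library, against 25.1% of genes higher and 11.8% lower, and Jak2 was lost with 10 CPM added (11.7% and 4.5%). Without the 36 ventral-library cells rich in Sbp and Spink1, Stat5b was 2.36-fold higher, Jak2 1.26-fold (0.864 to 1.93) and Prlr 3.75-fold lower. Socs2, at 4.19-fold lower (1.47 to 9.79, on 49 and 6 UMIs), was then past the threshold. The share of all genes was not computed for that set of cells. In basal cells Stat5b was 5.35-fold and Jak2 5.05-fold higher and Socs2 3.90-fold lower, against 26.9% of genes higher and 15.9% lower, but the ventral basal group was mixed and held 7 UMIs of Stat5b and 5 of Jak2. Against its 61 cells with more basal- than fibroblast-marker UMIs, Stat5b was 3.46-fold (1.48 to 10.7) and Jak2 2.92-fold (1.13 to 10.8) higher.

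Dorsolateral-type cells of the proximal library were also set beside the Msmb-led cluster of ventral lobes. Stat5a was 3.31-fold and Prlr 2.67-fold higher in the former, and 5 members in all were called higher, against 28.8% of genes higher and 1.04% lower. Those past 2-fold with 10 CPM added were Prlr, Stat5a and Stat5b, against 8.14% of genes higher and 0.416% lower. In 60 of the 107 Msmb-led cells Sbp and Spink1 made up more than 5% of the UMIs. Without such cells Stat5a was 2.11-fold (1.63 to 2.78) and Prlr 2.31-fold higher, while Cish, at 1.08-fold (0.608 to 2.08), and Socs2, at 2.21-fold (0.829 to 8.29), were no longer called.

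Across 14 class and library pairs of at least 50 cells, the genes with levels most like Prlr were Plpp5 (Pearson r of log2 CPM + 1 of 0.939), Magt1 (0.938), Zfp810 (0.933), 1700019D03Rik (0.919) and Syvn1 (0.919). Magt1 stood at 186 CPM in anterior-type, 166 CPM in dorsolateral-type and 58.0 CPM in proximal luminal cells. Stat5a ranked 553 of 12286 genes (r = 0.66). For Cish r was -0.60, for Socs2 -0.45, for Jak2 -0.35 and for Stat5b -0.05. The pairs share 2 libraries, depth and scaling, so these values are descriptions. Within anterior-type cells thinned to 3000 UMIs, 44.4% of cells with a Prlr UMI also held Stat5a, against 34.6% of the others. In dorsolateral-type cells the shares were 40.4% and 28.8%. The 2 anterior-type clusters differed in both genes at that depth (Prlr 61.3% and 35.7%, Stat5a 44.3% and 28.6%), and their part in the first gap was not tested. The same order, on fewer cells, was seen in Msmb-led cells (14.3% and 6.94%), Hbb-bs-led cells (12.5% and 5.49%) and fibroblasts (11.6% and 3.90%). The order was the other way, on few cells with Stat5a, in ventral-type cells (1.16% and 1.87% for ventral lobes, 0% and 2.63% for the proximal region) and in proximal luminal cells of the proximal library (0% and 2.50%). No cell held both genes among basal, endothelial, macrophage-like and Sbsn-led cells of the proximal library, or among proximal luminal cells of the ventral library.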

How the data were processed

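Per the submitters' processing notes, Cell Ranger 7.0.0 and mm10 were used; the deposited matrices hold UMI counts, whole numbers for each gene in each cell barcode, and whether intronic reads were counted is not given in the sources used here. Barcodes with fewer than 500 genes or over 10% mitochondrial UMIs were left out (226 ventral, 635 proximal). Scrublet called 11 of 5704 cells (0.193%), too few for the caller to have worked, so doublets remain. The libraries share 0 barcodes and total 48592956 (ventral) and 93852649 (proximal) UMIs in kept cells.

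Each library was clustered in scanpy 1.11.5 (2000 variable genes, 30 components, 15 neighbours, Leiden resolution 1). Marker lists named a cluster by the class whose markers stood highest above the mean of the remaining clusters of both libraries. Clusters with under 3 detected markers, or with more markers of another class among their top 10 genes, stayed unnamed. This score, and thinned shares for leaving out genes at like shares everywhere, replaced a z-score within each library after the clusters had been seen, because the z-score left several unnamed. The first partition kept the 6 genes among the clustering genes; its values were seen before they were left out. The members, lists and rules were chosen with earlier results of these data known.

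UMIs were summed per group and given as CPM with exact Poisson 95% intervals, ratios with exact conditional intervals and shares with Clopper-Pearson intervals, in scipy 1.17.1. A limit for a count of 0 is 3 UMIs. The planned call rule added 10 CPM to both levels; the text uses the interval rule of the named genes, at least 2-fold with an interval off 1 and at least 50 UMIs, and gives the planned one where its calls of the 6 members differ, and as counts for the pathway genes. Up to 4 pathway genes per direction are named by size. On counts simulated from the proximal profile, intervals held the true value for 93.5% of 200 genes changed 4-fold. Those counts were drawn from the Poisson model that the intervals assume, for genes with many UMIs. They thus check the calculation only, not variation between cells or low counts. Other settings of all ratios numbered 12 listed in advance and 7 chosen after seeing the data. Ratios of mixed groups between libraries without their mixed cells were also added after seeing the data. Coordinates are from GENCODE and RefSeq on GRCm38, the build of mm10.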

Additional observations from a re-analysis of the deposited data

Results flagged for a closer look

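For 3 contrasts the log2 ratios had opposite signs in the 2 libraries, and these differences were not tested. Stat5a in ventral-type over proximal luminal cells stood at -0.60 in ventral-lobe cells and at 0.04 in cells of the proximal region, and both intervals include 0. Stat5a in basal over proximal luminal cells was -0.38 (-2.22 to 1.20) in the ventral library, whose basal group was mixed, and 0.83 (0.50 to 1.15) in the proximal one. Stat5b in basal over proximal luminal cells was -0.10 (-1.63 to 1.28) in the ventral library and 0.24 (0.10 to 0.39) in the proximal one.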

How the results depend on the processing

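No paired analysis was possible because each region has 1 library, so leaving out replicates had no meaning. Of 168 alternative values of the 9 main log2 ratios, whose intervals all exclude 0, 122 lay inside the main interval, 38 outside it and 8 had the other sign. The 38 other ratios had 703 values. Among the 32 of them whose interval excludes 0, 0 of 594 values had the other sign, and among the 6 whose interval includes 0, 8 of 109 did. Neither Jak2 in anterior-type over proximal luminal cells nor Socs2 in fibroblasts over proximal luminal cells left its interval.

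Prlr in anterior-type over proximal luminal cells (5.71) moved to 6.61 with at most 5% mitochondrial UMIs, 6.23 with 1000 genes per cell, 6.40 with the highest doublet scores removed, 6.5 at resolution 0.5, 6.30 with 3000 variable genes, 5.38 with cells named by z-score, 6.36 with members kept in the clustering and also with the Prr9-led cluster added, and 5.00 with the unnamed clusters added to proximal luminal. Prlr in dorsolateral- over anterior-type cells (0.14) became, in the first 5 of these, -0.56, -0.51, -0.44, -0.51 and -0.50, then 0.41 by z-score, -0.50 with members kept in, -0.51 with the Prr9-led cluster, 0.38 without the most abundant genes, 0.22 without cells rich in Sbp and Spink1 and 0.08 without shallow clusters. Cish in anterior-type over proximal luminal cells (-0.97) became 0.10, -0.20, -0.35, -0.57 and -0.27 in the first 5, -0.51 by z-score, -0.30 with members kept in and -0.36 with the Prr9-led cluster.

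Stat5a in the same comparison (4.41) became 4.69 with 5% mitochondrial UMIs, 4.66 without doublets, 4.65 with 3000 genes, 4.90 with free RNA subtracted, 4.06 by z-score and 4.10 with unnamed clusters. Stat5b (-0.61) became -0.28 (5% mitochondrial), -0.38 (resolution 0.5), -0.35 (3000 genes), -0.30 (members kept in) and -0.80 (unnamed clusters). Prlr in basal over proximal luminal cells (-0.66) became -1.22 by z-score and -1.37 with unnamed clusters. Prlr in ventral-type over proximal luminal cells of the ventral library (0.84) became 3.56 with 1000 genes, 3.60 at resolution 2 and with another seed, 1.55 without the most abundant genes and 1.93 without mixed cells. The cause of these shifts was not tested. Prlr shares moved with depth, from 32.0% to 54.1% at 3000 UMIs and 83.3% unthinned in anterior-type cells, and from 0.625% to 1.81% and 13.2% in proximal luminal cells. Of the 47 ratios, 36 had a value with at most 5% mitochondrial UMIs, 41 with leading genes left out by unthinned shares and 42 with free RNA subtracted, where no Prlr was left in proximal luminal cells of the proximal library.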
